A study of Rattus norvegicus with 19 samples.

Results

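Cholesterol in the brain is made locally, and the genes described here make it, sense it and move it between cells. The mevalonate enzymes turn acetyl-CoA into isoprenoids, and the sterol enzymes turn squalene into cholesterol. The transcription factors encoded by Srebf2 and Srebf1 switch on sterol and fatty acid synthesis when membrane cholesterol is low, and the INSIG proteins hold them back when it is high. Astrocytes load cholesterol onto apolipoprotein E through the transporters ABCA1 and ABCG1. The protein NPC2 binds cholesterol in the lysosome and passes it on for export from there. Liver X receptors, which sense oxysterols, induce Abca1, Abcg1, Apoe and Srebf1.

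The group holds 34 listed genes, and a gene was read through the probe set with the highest mean among those whose platform symbol named it alone. Of these, 32 were measured among 14217 genes, namely 27 synthesis genes and 5 efflux genes. Hmgcs1 and Npc1 had no such probe set and were not analysed here. The synthesis genes were 7 mevalonate enzymes, 11 sterol enzymes, 5 regulators and 4 genes of fatty acid synthesis. A gene was tested where its log2 signal was above 4 on at least 2 arrays of a set. All 32 measured genes passed in both sets, and 31 of them were above 4 on every set 1 array. The exception was Scd, which was at or below 4 on 6 of the set 1 arrays.

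RNA came from adult male Wistar rats, from the somatosensory cortex, and the study asked how an opened blood-brain barrier, serum albumin and TGF-β1 relate to epilepsy arising in the cortex. Every treated cortex received its agent in artificial cerebrospinal fluid. Set 1 held 10 arrays with 1 array per condition. The bile salt deoxycholate (DOC, 2 mM), which the labels call deoxycholic acid, was sampled at 7, 24 and 48 h. Sampling was at 8, 24 and 48 h for albumin from bovine serum (0.1 mM) and for TGF-β1 (10 ng/ml), a cytokine. A single sham-operated animal was sampled at 24 h. Set 2 held 9 arrays, all at 24 h and from separate animals per the design text. These were 4 arrays with albumin plus TGF-β receptor blockers, 3 with albumin (0.1 mM) and 2 with a sham operation. The blockers were given together, SB431542 (100 µM) against the kinase of the type 1 receptor and an antibody (50 µg/ml) against the type 2 receptor. The labels of that group give no albumin dose.

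Values are GCRMA log2 signals, so a difference of 1 is a factor of 2. The median signal of an array was 6.05 to 6.18 in set 2 but 5.09 to 5.17 in set 1, so differences were taken within a set. In set 2 the second albumin replicate was the least like the others (median r = 0.981). The 8 neuron markers were all measured, and their summed level was 15.34 to 15.74 in set 1 and 16.23 to 16.37 in set 2, which shows neural tissue but does not tell cortex from other brain regions. In whole tissue, fewer cells of a type and less RNA per cell cannot be told apart. Differences are given with the moderated standard error (SE) of limma, and adjusted p-values are Benjamini-Hochberg values from limma over 10329 genes in set 2 and 10018 genes in set 1.

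Promoter sequence was available from RefSeq (build GRCr8) for 24 of the 32 genes, and not for Pmvk, Fdft1, Sqle, Stard4, Fasn, Acaca, Abcg1 and Lpl. The first start site listed for a gene was used, with 250 bases before it and 50 after it. The CCAAT box, which nuclear factor Y binds beside sterol regulatory elements, was searched as CCAAT on both strands. It was found in 18 of the 24 promoters (75%), against 37.7% of 27457 rat promoters of the same length. The sterol regulatory element spelled TCACNCCAC was found in 0 of the 24, against 1.13% of all. The looser spelling TCANNCCAC, which includes the stricter one, was found in Fdps, Insig2 and Npc2 (12.5%, against 3.89% of all). E-boxes (CANNTG) were found in 17 of the 24 (70.8%, against 71.6% of all). Liver X receptor elements, searched as 2 copies of AGGTCA spaced by 4 bases with 1 mismatch allowed, were found in 0 of the 24 (0.153% of all). No match says only that these letters are not in the window. Other spellings of these elements were not searched. A match in 0 of the 24 tells little where so few of all promoters match. The 250 bases before the start are printed for 3 synthesis genes with the smallest p in albumin against sham cortex of set 2, and for Npc2, the efflux gene that changed with time. They were chosen after their values were seen. Each is written 5′ to 3′ on the gene's strand, which is the minus strand for all 4, and capitals mark CCAAT boxes, which read ATTGG when they lie on the opposite strand.
Insig1, chr4:8057770-8058019: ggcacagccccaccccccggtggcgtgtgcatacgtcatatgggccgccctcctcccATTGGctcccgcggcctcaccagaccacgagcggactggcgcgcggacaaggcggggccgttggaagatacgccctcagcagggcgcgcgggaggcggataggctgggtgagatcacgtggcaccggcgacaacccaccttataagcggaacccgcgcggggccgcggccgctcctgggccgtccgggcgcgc
Idi1, chr17:66547525-66547774: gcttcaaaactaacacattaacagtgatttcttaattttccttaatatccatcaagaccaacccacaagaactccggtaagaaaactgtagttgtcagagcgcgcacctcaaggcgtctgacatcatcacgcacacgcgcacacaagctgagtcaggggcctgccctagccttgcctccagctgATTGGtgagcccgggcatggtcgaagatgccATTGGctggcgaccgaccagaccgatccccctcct
Fdps, chr2:176804817-176805066: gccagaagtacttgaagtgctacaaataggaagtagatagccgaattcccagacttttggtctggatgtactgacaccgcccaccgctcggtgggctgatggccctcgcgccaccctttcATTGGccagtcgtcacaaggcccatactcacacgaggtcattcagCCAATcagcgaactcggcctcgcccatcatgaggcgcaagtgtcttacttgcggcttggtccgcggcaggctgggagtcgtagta
Npc2, chr6:110149246-110149495: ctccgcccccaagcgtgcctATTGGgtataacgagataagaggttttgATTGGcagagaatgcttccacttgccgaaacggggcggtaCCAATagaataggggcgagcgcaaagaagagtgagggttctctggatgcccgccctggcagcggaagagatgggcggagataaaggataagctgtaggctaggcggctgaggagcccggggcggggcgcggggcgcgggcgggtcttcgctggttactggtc
Insig1 has 1 box in this stretch, Idi1 and Fdps have 2 each, and Npc2 has 3.

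After 24 h of albumin in set 2, Insig1 and several sterol pathway enzymes lay above sham while Srebf1 and the efflux genes lay below it, but no member passed the test. At an adjusted p under 0.05, limma called 0 of the 32 members, against 1.33% of all genes. At an unadjusted p under 0.05 there were 6 members (18.8%), against 21.4% of all genes, a share near that of genes in general. The medians were 0.10 for the 27 synthesis genes and −0.33 for the 5 efflux genes, against 0.02 for all genes. Without sham replicate 1 the synthesis median was 0.01, and without albumin replicate 2 it was 0.04. All 3 albumin arrays were above both sham arrays for Mvd, Idi1, Fdps, Sqle, Lss and Insig1 (18.8% of the members, against 22.2% of all genes). All 3 were below both sham arrays for Srebf1, Apoe and Npc2 (9.4%, against 19.2% of all genes).

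Insig1, which retains the SREBP proteins in the endoplasmic reticulum and is itself a target of SREBP, read 11.19, 11.43 and 10.81 with albumin, against 10.48 and 10.61 in sham cortex. The groups did not overlap, and the lowest albumin array was closest to sham. The difference was 0.60 ± 0.19 (SE, n = 3 against 2; limma adjusted p = 0.13). Idi1, the isomerase that makes dimethylallyl diphosphate, read 11.49, 11.62 and 11.13 with albumin, against 10.61 and 10.94 in sham cortex. The groups did not overlap, and the difference was 0.63 ± 0.20 (limma adjusted p = 0.138). Fdps, which makes farnesyl diphosphate, read 12.01, 11.78 and 11.83 with albumin, against 11.40 and 11.61 in sham cortex. Its difference was smaller, at 0.37 ± 0.12 (limma adjusted p = 0.144). Lss, which closes the sterol rings, read 9.07, 9.05 and 9.03 with albumin, against 8.52 and 8.71 in sham cortex. The 3 albumin arrays were nearly equal, and the difference was 0.44 ± 0.15 (limma adjusted p = 0.15).

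Srebf1 lay on the opposite side. It read 8.11, 7.07 and 8.21 with albumin, against 8.95 and 8.76 in sham cortex. All albumin arrays were lower, and replicate 2, the array least like the others, was the lowest. The difference was −1.06 ± 0.36 (limma adjusted p = 0.155), and −0.70 ± 0.26 without that replicate (limma adjusted p = 0.19). The second Srebf1 probe set gave −0.66. Srebf2, the main activator of cholesterol synthesis, differed by −0.06.

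All 5 efflux genes had a negative difference from sham. Of the 5, Lpl was at −0.22 and reached 0.05 with 1 array left out, so the count of 5 rests on single arrays. Apoe, which encodes apolipoprotein E, read 14.42, 14.09 and 14.35 with albumin, against 14.83 and 14.50 in sham cortex, a difference of −0.38 ± 0.15 (limma adjusted p = 0.196). Npc2 read 10.42, 10.73 and 10.59 with albumin, against 11.00 and 10.83 in sham cortex, a difference of −0.33 ± 0.15 (limma adjusted p = 0.244). Neither gene overlapped between the groups. Abca1 read 8.88, 6.96 and 9.18 with albumin, against 9.18 and 9.18 in sham cortex. The difference of −0.84 rested on replicate 2 and was −0.15 without it, and another Abca1 probe set gave 0.41. Markers of other cells differed in the same arrays. The summed level of the neutrophil markers was 8.00 to 11.88 with albumin and 4.45 to 6.10 in sham cortex, that of the microglia and macrophage markers 12.62 to 13.13 and 11.69 to 12.39, and that of the red cell markers 13.61 to 14.51 and 13.32 to 13.49. Of these, only the phagocyte marker Gpnmb passed the test, with a rise of 3.39 ± 0.62 (limma adjusted p = 0.0486). The summed level of the astrocyte markers was 16.29 to 16.58 with albumin and 16.69 to 16.70 in sham cortex, with 0 of 8 markers past the test. That of the meninges markers was 11.80 to 12.73 with albumin and 14.32 to 14.89 in sham cortex, and 3 of 10 fell. Their part in the lower Apoe, Npc2 and Srebf1 values was not tested.

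With the TGF-β receptor blockers, the group means of Insig1, Idi1, Fdps, Lss, Srebf1, Apoe and Npc2 lay between those of albumin and sham. These genes were described for their differences between albumin and sham on the same albumin arrays, a choice that favours such a pattern. Other members did not lie between, among them Pmvk, Hsd17b7, Tm7sf2, Dhcr7, Srebf2 and Scd. In albumin plus blockers against albumin, limma called 0 of 32 members, against 0.0194% of all genes. At an unadjusted p under 0.05 there were 4 members (12.5%), against 16.6% of all genes. Of the 27 synthesis genes, 20 had a negative difference (median −0.13), and all 5 efflux genes had a positive one (median 0.16), against a median of −0.003 for all genes. Of the 5, Lpl was at 0.003 and Abcg1 at 0.03. Without albumin replicate 2, Abca1 was at −0.15 and Abcg1 at −0.04, and without albumin replicate 3, Lpl was at −0.26, so the count of 5 rests on single arrays. Insig1 read 10.57, 10.81, 10.45 and 10.53 with blockers, against 11.19, 11.43 and 10.81 with albumin alone. The highest blocker array equalled the lowest albumin array, and the difference was −0.55 ± 0.16 (SE, n = 4 against 3; limma adjusted p = 0.188). Fdps read 11.64, 11.74, 11.54 and 11.56 with blockers, all below the albumin arrays given above, with a difference of −0.25 ± 0.10 (limma adjusted p = 0.274). Idi1 read 10.85, 11.23, 10.74 and 11.14 with blockers and overlapped with albumin, with a difference of −0.42 ± 0.17 (limma adjusted p = 0.277). Apoe read 14.61, 14.61, 14.48 and 14.75 with blockers, all above the albumin arrays, with a difference of 0.33 ± 0.12 (limma adjusted p = 0.262). For blockers against albumin, the share of all genes without overlap was not counted. Srebf1 read 8.55, 8.33, 7.75 and 8.49 with blockers and overlapped with albumin, with a difference of 0.48, and of 0.12 without albumin replicate 2. The meninges markers summed to 12.96 to 14.21 and the astrocyte markers to 16.62 to 16.74 with blockers, both above albumin alone, and their part in these differences was not tested.

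**Figure D1:**
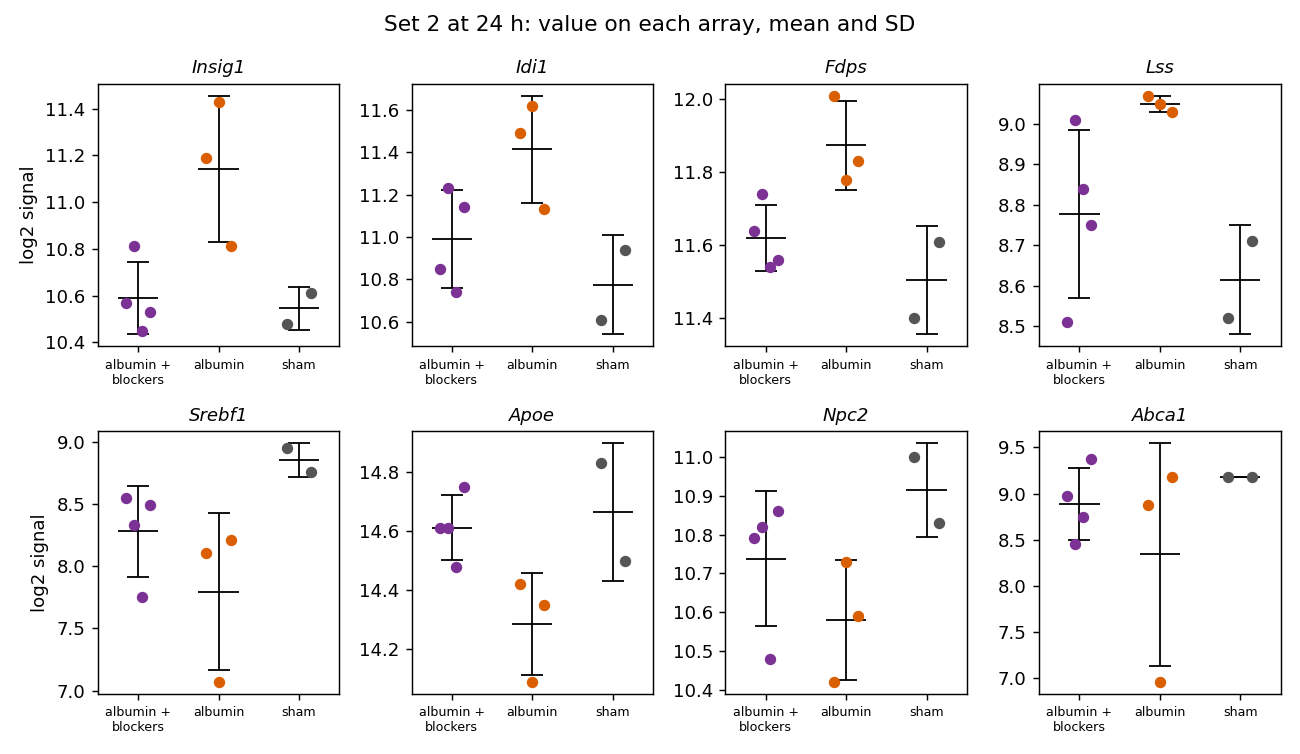
Log2 signal of 8 genes on each set 2 array (y axis) in cortex with albumin plus blockers (n = 4), albumin (n = 3) and sham (n = 2); points are arrays, and bars are the mean and SD. Insig1, Idi1, Fdps and Lss are highest with albumin alone, Srebf1, Apoe and Npc2 are lower with albumin than in both sham arrays, and the low albumin point of Abca1 is 1 array.

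Against sham cortex, the differences with albumin plus blockers were smaller than with albumin alone for some members, such as Srebf1, and larger for others. Scd differed most from sham with blockers, at −0.69, against −0.37 with albumin alone, and its blocker arrays overlapped with sham. Limma called 0 of 32 members, against 0.0% of all genes. At an unadjusted p under 0.05 there was 1 member (3.12%, against 4.3% of all genes). This was Pmvk, phosphomevalonate kinase, which read 10.41, 10.57, 10.39 and 10.36 with blockers, against 10.23 and 10.10 in sham cortex, a difference of 0.27 ± 0.10 (SE, n = 4 against 2; limma adjusted p = 1.0). The groups did not overlap, and the share of all genes without overlap was not counted for this comparison. The median was 0.00 for the 27 synthesis genes and −0.17 for the efflux genes, all 5 of which had a negative difference. Apoe reached 0.11 with 1 array left out, so this count of 5 also rests on single arrays. Srebf1 was below both sham arrays on every blocker array, with a difference of −0.57. These 3 comparisons share arrays, so they do not stand for 3 separate observations.

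Set 1 gave 1 array per agent and time. Most cholesterol enzymes were above the sham array at the first time point. The medians of the agents lay farthest apart at 24 h. The 7 mevalonate and 11 sterol enzymes are described together here. At the first time point, 17 of these 18 enzymes were above sham with DOC, with albumin and with TGF-β1 alike, with medians of 0.62, 0.48 and 0.46. At 24 h the median was −0.09 with DOC (8 of 18 above sham), 0.68 with albumin (17 of 18) and 0.19 with TGF-β1 (14 of 18). At 48 h it was 0.26, 0.17 and 0.17. The median over all genes lay between −0.06 and 0.02 on these arrays. All 9 treated arrays were set against the same sham array, so a low value on that array raises every one of these differences. That sham was sampled at 24 h, so at the first time point and at 48 h agent and time cannot be told apart. With 1 array per agent at 24 h, a difference between agents cannot be told apart from one between single arrays.

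By the median of the enzymes, the albumin array at 24 h and the DOC array at 7 h were the farthest above sham. They were picked for that median, so their counts are extremes among the treated arrays. On each of the others, 0 to 2 members were at least 2-fold higher, and the share of all genes was not counted there. On the albumin array at 24 h, 7 of the 32 members were at least 2-fold higher than sham, against 4.86% of all genes, and 1 was at least 2-fold lower, against 2.53%. Acat2, which starts the mevalonate pathway, was higher by 1.59, Mvd, the mevalonate diphosphate decarboxylase, by 1.53, and Tm7sf2, a sterol reductase, by 1.31. The other 4 were Stard4 (1.24), Sqle (1.18), Fdps (1.11) and Insig1 (1.06), and the lower gene was Srebf1. On the DOC array at 7 h, 5 members were at least 2-fold higher, against 4.19% of all genes, and 1 was at least 2-fold lower, against 4.34%. They were Mvd (1.45), Insig1 (1.43), Stard4, a carrier of cytosolic sterol (1.31), Sqle (1.04) and Scd, whose sham value lay under the filter level, with Srebf1 lower. By 24 h with DOC, Ebp, the sterol isomerase, was at −1.52 and Fdft1, squalene synthase, at −0.95, while Hsd17b7, a ketosteroid reductase of the pathway, was at 1.05. For Stard4 a second, dimmer probe set gave differences from sham of the opposite sign in the means of DOC and albumin.

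**Figure D2:**
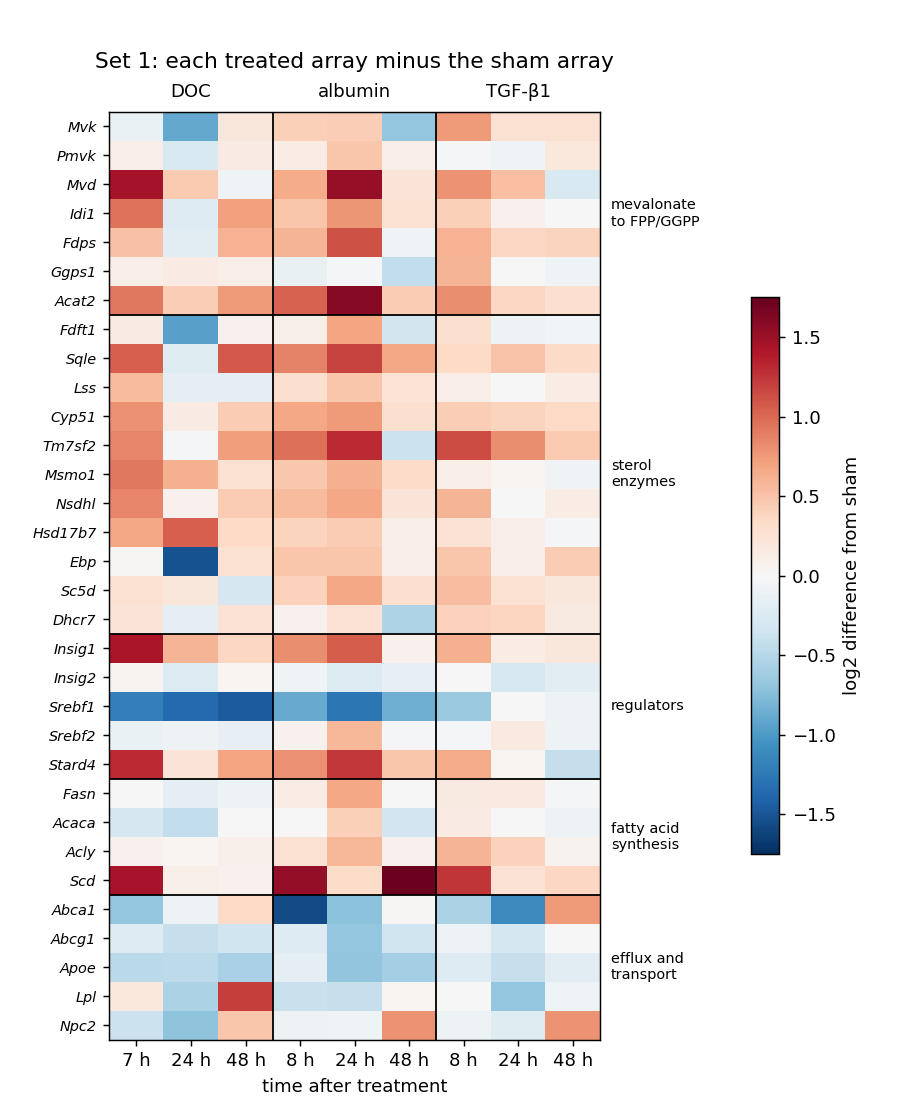
Log2 difference from the set 1 sham array (colour, red higher and blue lower) for the 32 measured genes (rows, by role) on each of the 9 treated arrays (columns, by agent and time). Enzymes are mostly red at 7/8 h and on the albumin array at 24 h, Srebf1 is blue on all DOC and albumin arrays, and Apoe is blue on all 9.

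**Figure D3:**
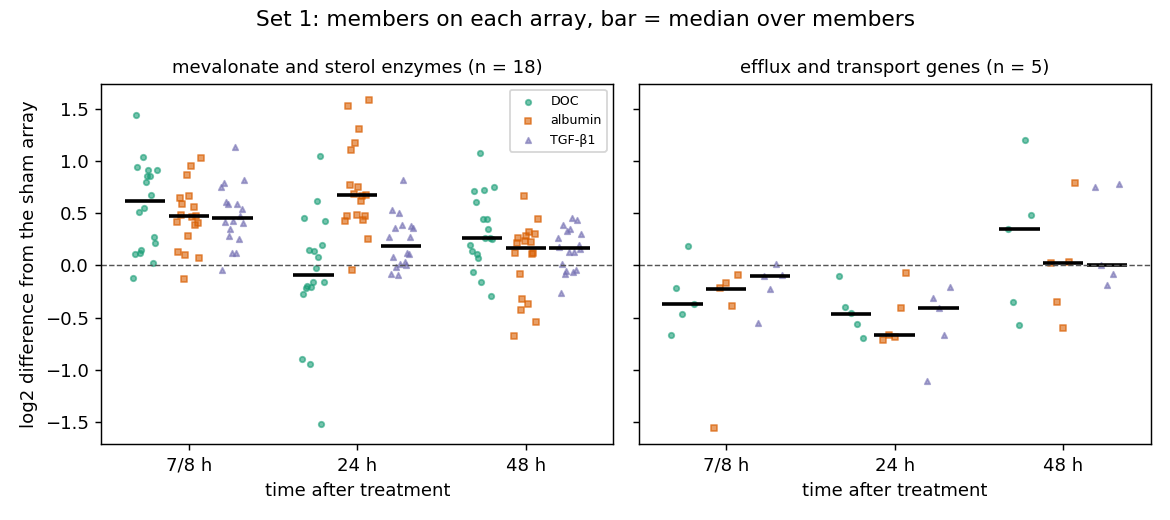
Log2 difference from the set 1 sham array (y axis) of the 18 mevalonate and sterol enzymes (left) and the 5 efflux genes (right) at each time (x axis); points are genes and bars are medians over genes. The enzyme median is 0.68 with albumin and −0.09 with DOC at 24 h, and no efflux gene is above sham at 24 h.

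Averaged over an agent's 3 times and set against the lone sham, no member passed the test with any agent. With DOC, limma called 0 of 32 members, against 0.469% of all genes, and 5 at an unadjusted p under 0.05 (15.6%, against 18.7% of all genes). With albumin it called 0, against 0.369%, and 5 at an unadjusted p under 0.05 (15.6%, against 11.9%). With TGF-β1 it called 0, against 0.0%, and 0 at an unadjusted p under 0.05 (0.0%, against 7.49%). These tests take the spread of the single sham array to be that of the treated arrays. The synthesis median was 0.13 with DOC, 0.36 with albumin and 0.24 with TGF-β1, and the efflux median was −0.19, −0.42 and −0.25. With 1 array left out, the synthesis median ranged from 0.08 (without DOC at 48 h) to 0.33 (without DOC at 24 h) with DOC, and from 0.18 (without albumin at 24 h) to 0.49 (without albumin at 8 h) with albumin, so it gives no order of the agents.

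Srebf1 had the smallest p among the members in DOC and in albumin against sham. It read 7.00, 6.84 and 6.75 with DOC at 7, 24 and 48 h, 7.31, 6.94 and 7.35 with albumin and 7.55, 8.19 and 8.11 with TGF-β1 at 8, 24 and 48 h, against 8.20 in the sham array. All DOC and albumin arrays were clearly below sham, and the later TGF-β1 arrays were level with it. The difference was −1.34 ± 0.30 with DOC (SE, n = 3 against 1; limma adjusted p = 0.107), −1.0 ± 0.30 with albumin (limma adjusted p = 0.254) and −0.25 with TGF-β1. The second Srebf1 probe set gave −1.37 with DOC and −1.19 with albumin. With DOC, Hsd17b7 differed by 0.69 ± 0.20 (limma adjusted p = 0.151) and Msmo1, a methylsterol oxidase, by 0.60 ± 0.20 (limma adjusted p = 0.189). With albumin, Acat2 differed by 1.03 ± 0.38 (limma adjusted p = 0.357). Scd was also higher than sham on all 3 albumin arrays (limma adjusted p = 0.334), but its sham value of 3.56 lay under the filter level of 4, so no exact difference is given.

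Of the efflux genes, Apoe was below sham on all 9 treated arrays. It read 13.33, 13.34 and 13.24 with DOC, 13.63, 13.11 and 13.20 with albumin and 13.57, 13.39 and 13.61 with TGF-β1, in order of time, against 13.80 in the sham array. The difference was −0.50 ± 0.20 with DOC (limma adjusted p = 0.253) and −0.49 ± 0.20 with albumin (limma adjusted p = 0.414). Abcg1, which exports cholesterol to lipoprotein particles, read 9.02, 8.57 and 8.89 with albumin at 8, 24 and 48 h, against 9.24 in the sham array, a difference of −0.42 ± 0.17 (limma adjusted p = 0.412). At 24 h, all 5 efflux genes were below sham with each of the 3 agents, on the probe sets used. For Abca1 averaged over the 3 times, that probe set gave −0.14 with DOC and −0.75 with albumin. Its other probe sets gave 0.27, 0.42 and 0.33 with DOC, and −0.31, 0.86 and 0.15 with albumin, the last of each being the dimmest.

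Albumin at 24 h was measured in both sets with no array in common. Of the 32 members, 23 had the same sign of difference from sham in both (71.9%), against 70.2% of 9841 genes tested in both sets. Among the 18 enzymes it was 14, and among the 5 efflux genes all 5. Srebf1 was at −1.26 in set 1 and −1.06 in set 2, Insig1 at 1.06 and 0.60, Idi1 at 0.77 and 0.63, and Apoe at −0.69 and −0.38. Acat2 was at 1.59 in set 1 and 0.23 in set 2, and Tm7sf2 at 1.31 and 0.25.

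Over time, Npc2 rose at 48 h and was the only member to pass the test in any of the 12 comparisons fitted. It read 9.91, 9.58 and 10.76 with DOC at 7, 24 and 48 h, 10.19, 10.21 and 11.07 with albumin, and 10.19, 10.07 and 11.06 with TGF-β1 at 8, 24 and 48 h. The sham array read 10.28. Every 48 h array was above every earlier array and above sham, while the 7/8 h and 24 h arrays overlapped. Between 48 and 24 h the difference was 1.01 ± 0.12 (SE, n = 3 against 3; limma adjusted p = 0.0124), a factor of 2.01, and between 48 and 7/8 h it was 0.87 ± 0.12 (limma adjusted p = 0.0109). Leaving out 1 array ended the first call in 3 cases (DOC 24 h, TGF-β1 24 h or TGF-β1 48 h, limma adjusted p = 0.0516 to 0.0835). It ended the second in 3 cases (albumin 8 h, TGF-β1 8 h or TGF-β1 48 h, limma adjusted p = 0.0542 to 0.068), while the size stayed between 0.83 and 1.09. Npc2 has 1 probe set, so no second probe set could be compared.

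Between 48 and 24 h, limma called 1 of 32 members, against 1.41% of all genes, and 5 members had an unadjusted p under 0.05 (15.6%, against 16.3%). All 5 efflux genes had a positive difference, with a median of 0.93, against −0.14 for the synthesis genes. Of the 5, Apoe was at 0.07 and Abcg1 at 0.23, and Apoe reached −0.02 with 1 array left out, so the count of 5 rests on single arrays. The arrays did not overlap for 4 members that were higher (12.5%, against 10.8% of all genes), namely Abca1, Lpl, Npc2 and Insig2, and for 1 that was lower (3.1%, against 7.78%), Mvd. Between 48 and 7/8 h, limma called 1 of 32, against 5.09% of all genes, and 4 had an unadjusted p under 0.05 (12.5%, against 20.7%). The arrays did not overlap for 2 members that were higher (6.2%, against 14.8% of all genes) and 7 that were lower (21.9%, against 9.22%). The 7 were Mvd, Fdft1, Tm7sf2, Nsdhl, Insig1, Acat2 and Fasn. Of the 5 efflux genes, 3 had a positive difference between 48 and 7/8 h, with Apoe at −0.16 and Abcg1 at −0.05.

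Abca1 read 8.69, 9.25 and 9.71 with DOC at 7, 24 and 48 h, 7.80, 8.63 and 9.38 with albumin, and 8.80, 8.25 and 10.11 with TGF-β1 at 8, 24 and 48 h, against 9.35 in the sham array. Each agent's 48 h array was its highest, and each early array was below sham on this probe set, whose sign against sham other Abca1 probe sets did not share. The difference was 1.02 ± 0.29 between 48 and 24 h (limma adjusted p = 0.167) and 1.30 ± 0.29 between 48 and 7/8 h (limma adjusted p = 0.0542). All 4 Abca1 probe sets were higher at 48 h than at either earlier time, and with their mean the second comparison passed (1.09 ± 0.20, limma adjusted p = 0.0318). Lpl, which splits lipoprotein triglyceride, read 6.50, 5.75 and 7.52 with DOC, 5.91, 5.90 and 6.34 with albumin, and 6.32, 5.64 and 6.23 with TGF-β1, in order of time. The DOC array at 48 h was the highest of all. Lpl differed by 0.93 ± 0.27 between 48 and 24 h (limma adjusted p = 0.172), and by 0.58 without DOC at 48 h. Abca1 differed by 0.60 between 48 and 24 h without TGF-β1 at 24 h.

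Most synthesis genes were lower at 48 h than early, without passing the test. Between 48 and 7/8 h, 25 of 27 had a negative difference (median −0.28, against 0.01 for all genes), and 0 passed the test. Mvd read 5.89, 4.90 and 4.38 with DOC, 5.09, 5.98 and 4.66 with albumin and 5.24, 4.97 and 4.18 with TGF-β1, in order of time. Among the treated arrays, all 48 h arrays were below all others, while the sham array read 4.44, with a difference of −1.0 ± 0.31 between 48 and 7/8 h (limma adjusted p = 0.13). Insig1 read 10.99, 10.16 and 9.92 with DOC, 10.38, 10.63 and 9.65 with albumin and 10.19, 9.70 and 9.76 with TGF-β1, against 9.56 in the sham array. It was above sham on all 9 arrays and closest to it late, with a difference of −0.74 ± 0.23 between 48 and 7/8 h (limma adjusted p = 0.133).

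Between 24 and 7/8 h, limma called 0 of 32 members, against 0.799% of all genes, and 1 had an unadjusted p under 0.05 (3.12%, against 14.1%). It was Scd, stearoyl-CoA desaturase, which makes monounsaturated fatty acids. Scd read 5.0, 3.66 and 3.65 with DOC, 5.10, 3.88 and 5.28 with albumin and 4.81, 3.81 and 3.92 with TGF-β1, in order of time, against 3.56 in the sham array. Every 24 h array was below every early one and near the sham value, under the level of 4 used as the filter. The limma adjusted p was 0.168, and no exact difference is given against values under that level. Albumin at 48 h was high again, and it was the only array after the early time above 4.

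**Figure D4:**
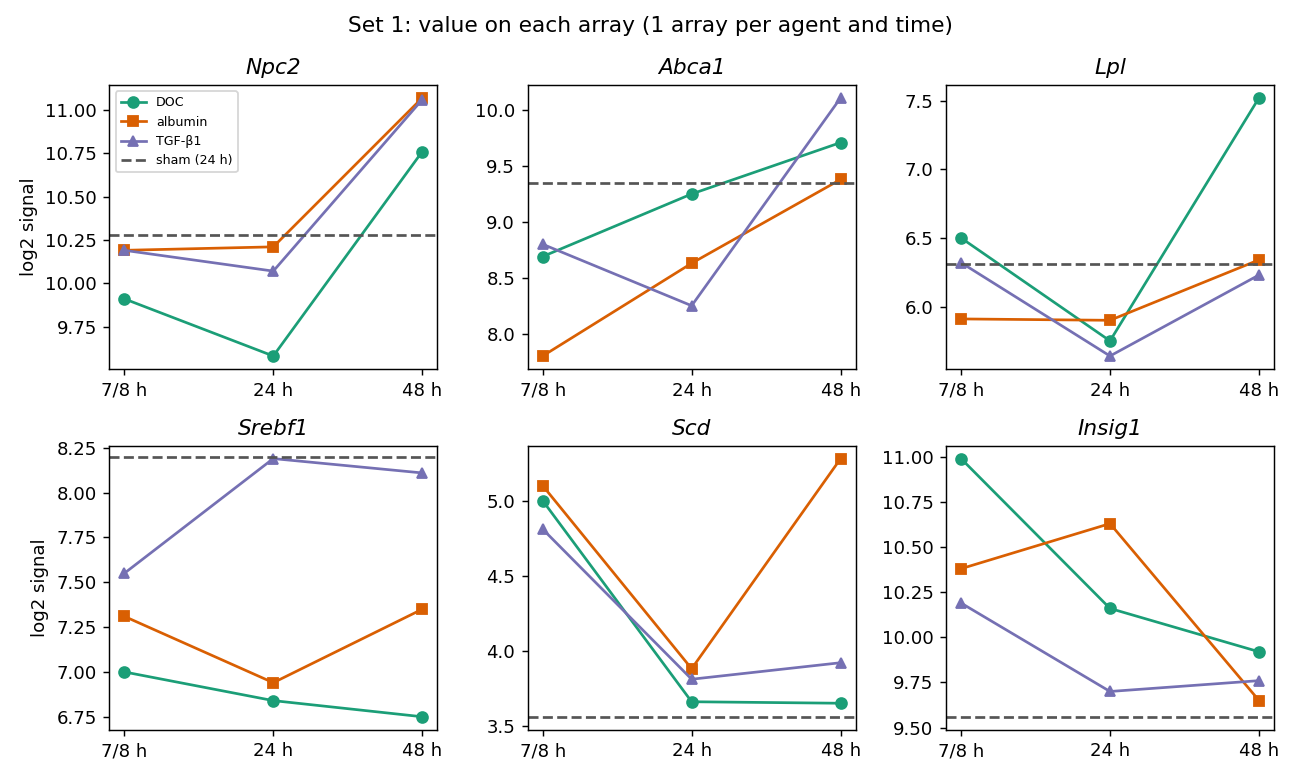
Log2 signal (y axis) of 6 genes at 7/8, 24 and 48 h (x axis) with DOC, albumin and TGF-β1, 1 array per point; the dashed line is the sham array at 24 h. Npc2 is above sham on all 48 h arrays only, Abca1 is highest at 48 h with each agent, and Srebf1 with DOC and albumin stays below sham throughout.

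Markers of other cells moved over the same times as Npc2. Microglia and macrophage markers rose between 48 and 7/8 h in 10 of 11 cases (median 1.85) and between 48 and 24 h in 3 of 11 (median 1.05). Their summed level was 10.16 to 10.61 at 7/8 h, 11.55 to 12.31 at 24 h and 12.83 to 12.96 at 48 h, against 10.75 in the sham array. The lysosomal phagocyte marker Cd68 rose by 3.43 ± 0.23 between 48 and 24 h (limma adjusted p = 0.0026). Of the meninges markers, 2 of 8 tested rose between 48 and 24 h and 4 of 8 between 48 and 7/8 h, and of the endothelium markers, 2 of 5 rose between 48 and 7/8 h. The astrocyte markers summed to 15.40 to 15.69 at 7/8 h, 15.62 to 15.81 at 24 h and 15.56 to 16.0 at 48 h. Of the 8, the reactive astrocyte marker Gfap rose, by 2.05 ± 0.29 between 24 and 7/8 h (limma adjusted p = 0.0387) and by 2.19 ± 0.29 between 48 and 7/8 h (limma adjusted p = 0.0095). Between 48 and 7/8 h both red cell markers fell (median −1.38), and the 2 neutrophil markers tested had a median of −3.30 with 0 past the test. The part of these cells in the rise of Npc2 and in the values of Abca1 and Lpl was not tested.

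A list of 42 further measured genes of sterol, lipoprotein, lipid droplet and fatty acid handling was read beside the members. Of these, 41 were tested in set 1. Between 24 and 7/8 h 1 rose (2.44%, against 0.799% of all genes), between 48 and 24 h 1 rose (2.44%, against 1.41%), and between 48 and 7/8 h 3 rose and 1 fell (9.76%, against 5.09%). In the other 9 comparisons, 0 passed limma's test, with 2 to 14 at an unadjusted p under 0.05 (4.76% to 34.1%, against 4.3% to 21.4% of all genes). Plin2, which coats lipid droplets, rose by 1.96 ± 0.29 between 24 and 7/8 h (limma adjusted p = 0.0429) and by 2.75 ± 0.29 between 48 and 7/8 h (limma adjusted p = 0.00489). Lcat, which esterifies cholesterol on lipoproteins, rose between 48 and 24 h (limma adjusted p = 0.00746) and between 48 and 7/8 h (limma adjusted p = 0.00534). Its mean was 3.99 at 7/8 h, 3.74 at 24 h and 6.14 at 48 h, against 6.16 in the sham array. The earlier means lay under the filter level of 4, so no exact difference is given, and at 48 h it was at the sham level. Lcat is the 1 gene counted as rising between 48 and 24 h and 1 of the 3 between 48 and 7/8 h. Both shares thus count a gene whose mean was above the filter level only at 48 h among these times. They are not read as a result about the list. Soat1, which esterifies cholesterol for storage, rose by 1.35 ± 0.20 between 48 and 7/8 h (limma adjusted p = 0.0153). Acsl6, an acyl-CoA synthetase, fell by 0.83 on the log2 scale between 48 and 7/8 h (limma adjusted p = 0.0423). In set 2, Plin2 differed by 3.11 ± 0.71 and Lcat by −2.34 ± 0.47 between albumin and sham (limma adjusted p = 0.0675 and 0.0564).

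The agents were compared with each other over their 3 times, which pairs 7 h of DOC with 8 h of the others. In TGF-β1 against DOC, limma called 0 of 32 members, against 0.0299% of all genes, and 4 had an unadjusted p under 0.05 (12.5%, against 20.8%). Srebf1 was higher with TGF-β1 by 1.09 ± 0.21 (SE, n = 3 against 3; limma adjusted p = 0.0975), and all 3 TGF-β1 arrays given above were above all 3 DOC arrays. Hsd17b7 read 7.63, 7.50 and 7.34 with TGF-β1, against 8.06, 8.44 and 7.73 with DOC. The groups did not overlap, and the difference was −0.59 ± 0.14 (limma adjusted p = 0.118). Msmo1 read 11.53, 11.44 and 11.35 with TGF-β1, against 12.33, 12.04 and 11.67 with DOC. Again the groups did not overlap, and the difference was −0.57 ± 0.14 (limma adjusted p = 0.121). In this comparison 4 members were higher without overlap (12.5%) and 2 were lower (6.2%). The share of all genes without overlap was not counted here, so these counts are not read as a result. In TGF-β1 against albumin, limma called 0 of 32, against 0.0% of all genes, and 3 had an unadjusted p under 0.05 (9.38%, against 8.75%). Srebf1 again had the smallest p, with a difference of 0.75 ± 0.21 (limma adjusted p = 0.494). In albumin against DOC, limma called 0 of 32, against 0.00998% of all genes, and 3 had an unadjusted p under 0.05 (9.38%, against 7.48%). Npc2 was among the 3, with a difference of 0.41 ± 0.12 (limma adjusted p = 0.645), and its DOC array was the lowest of the 3 at each time. The synthesis median in albumin against DOC was 0.25, and it was −0.11 without DOC at 24 h and −0.07 without albumin at 24 h.

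Of the 32 members, 18 had more than 1 probe set. Where more than 1 probe set was above 4 on all 19 arrays (13 members), the signs differed between probe sets for 5 members in albumin against sham of set 2 (Abca1, Cyp51, Fasn, Nsdhl and Sc5d), and for 1 member between 48 and 7/8 h (Insig2). They differed for 6 members in albumin plus blockers against albumin (Abca1, Ggps1, Insig2, Mvk, Nsdhl and Sc5d). Between 48 and 24 h it was 4 (Fdft1, Ggps1, Idi1 and Mvk). Against sham in set 1 it was 4 with DOC (Abca1, Cyp51, Ggps1 and Sc5d) and 2 with albumin (Abca1 and Mvk). Both probe sets of Srebf1, Idi1 and Lss had the same sign in albumin against sham of set 2.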

How the data were processed

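Expression was read from 19 arrays of rat cortex, whose probe set identifiers are those of Affymetrix Rat Genome 230 2.0. GCRMA gave the deposited log2 signals, per the submitters' processing notes, and its version and settings are not given in the sources used here. The arrays carry no read depth, and their number limits the precision. Of 31099 probe sets, 20826 named 1 gene in the platform annotation, 436 several and 9780 none, and 57 were controls. Each of 14217 genes was read through its highest-mean probe set. Models were fitted with limma 3.58.1 (R 4.3.3, lmFit and eBayes), two-sided, with Benjamini-Hochberg adjustment and a threshold of 0.05. Set 2 was fitted as 3 groups. Set 1 was fitted with additive agent and time terms, and an agent's 3 arrays were set against the lone sham, which had no time term. The fits were tested on simulated data. Tables were made in Python 3.11.15 with pandas 2.3.3 and numpy 2.4.6, and plots with matplotlib 3.10.9.

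The members, the further gene list, the markers and the tests were chosen with earlier results of these data known. Members described individually were those with an unadjusted p under 0.05 or the largest differences, plus those whose role or probe sets called for values, some chosen after their values were seen. In set 2, same-numbered arrays of different groups had correlated deviations from their group means of −0.14 to 0.22 in 7 pairs, not all over 0.1, so the numbers were not taken to pair the samples. Alternatives were other filters, the mean of a gene's probe sets, a trended and robust prior, centring, the compared groups alone, a replicate block, other treatments of the sham, and leaving out each array.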

Additional observations from a re-analysis of the deposited data

How the results depend on the processing

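The counts of members called and the medians of the synthesis and efflux genes differed from the values above by no more than 1.5 times (counts) or the typical spread between arrays (medians) under the filters, scaling, priors, probe set rules, groupings and omissions tried, apart from these. With the sham placed at 24 h in the additive model, the efflux median in DOC against sham was −0.49. Between 48 and 7/8 h, the count of members called was 2 with the mean of all probe sets and 2 with the trended and robust prior (Npc2 and Abca1). Leaving out 1 array at a time, the counts ranged from 0 to 1 between 24 and 7/8 h, from 0 to 1 between 48 and 24 h and from 0 to 2 between 48 and 7/8 h. The member gained without albumin at 48 h was Scd. Its values above 4 that remained in that fit were all on the early arrays, where it was high, so that gain counts for nothing. The efflux median ranged from 0.58 to 1.09 between 48 and 24 h, with its lowest value without DOC at 48 h, and from 0.10 to 0.67 between 48 and 7/8 h, also lowest without DOC at 48 h. The synthesis median in albumin against DOC ranged from −0.11 to 0.31, and that between 48 and 24 h from −0.31 to 0.10. With the replicate number as a block in set 2, 0 members were called in each of the 3 comparisons. The synthesis median in albumin against sham was then 0.12. The block changed no call of a member, but no member was called without it either. Over all genes, albumin against sham gave 53 calls with the block and 137 without it, so the share of all genes given above depends on this choice. Of 2067 values of single members under the alternatives, 6 lost and 5 gained a call, and 75 changed sign with neither value past the threshold; the cause was not tested. The few arrays limit all of this: set 1 has no replicates, and set 2 has 2 sham arrays.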
